A study of Mus musculus with 4 samples.

Results

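The genes described here encode nucleoporins, importins and exportins, the proteins that build the nuclear pore and carry cargo through it. They were chosen by name, as the rows of a deposited gene count table whose symbols begin with Nup and a digit, Kpna, Kpnb, Ipo and a digit, or Xpo and a digit or t. This gave 42 of 23473 gene rows, with 22 nucleoporin rows, 14 importin rows and 6 exportin rows. The samples of both groups carry the label MIN6, the name of a mouse insulinoma cell line that serves as a model of the pancreatic beta cell, and were grown in DMEM with serum. The first group stably overexpresses the orphan nuclear receptor TLX, the product of the gene Nr2e1, and is called TLX here. The second is labelled wild type and serves as control. Each group has 2 libraries of total RNA. The labels used here do not give the vector or the number of clones behind the stable cells. They also do not say whether the 2 libraries of a group came from separate cultures. The p-values therefore rest on the spread between these libraries, partly pooled over genes, and that spread may be technical.

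The gene rows held 8490145 and 8136185 counts in the TLX libraries and 8435976 and 9788646 in the control libraries, of which the 42 transport rows took 0.370% to 0.375% in TLX and 0.342% to 0.366% in control. Nr2e1 was counted 338 and 281 times in TLX libraries and 8 and 10 times in control libraries, so the libraries match their labels. The labelled cell type is less clear. Of 13 beta cell markers 9 were at 0 in every library, among them Slc2a2, Abcc8, Kcnj11, Iapp and Chga. Ins1, Ins2, Pdx1 and Mafa were counted in every library, with Ins1 highest, at 98 and 70 counts in TLX and 78 and 86 in control. The summed level of the list was 20.8 and 21.7 CPM in TLX and 20.6 and 18.3 CPM in control. Of 12 mesenchymal and fibroblast markers Lum was at 0 throughout and Col3a1, Dcn, Thy1 and Acta2 had 0 to 6 counts a library. The summed level was 8592 and 8255 CPM in TLX and 7978 and 7571 CPM in control, mostly from Col1a2, Vim and S100a4. Members of that list went both ways, with Sparc (log2 fold change 0.87) and Col1a2 (0.28) called higher and Fn1 (-0.76) and Pdgfrb (-0.73) called lower. Summed levels of duct markers were 13.4 and 13.9 CPM in TLX and 26.5 and 29.4 CPM in control, mostly from Sox9, which was called lower (-1.37), while Krt7 was called higher (1.77) and Krt19 was at 0. The sums were 55.3 and 51.2 CPM in TLX and 43.2 and 49.7 CPM in control for 3 alpha cell markers, all from Irx2. For 3 leukocyte markers, nearly all from Cd68, they were 43.3 and 45.7 CPM in TLX and 59.3 and 68.3 CPM in control. The beta cell, alpha cell, mesenchymal, duct and leukocyte sums did not overlap between groups, endothelial markers were at or near 0, acinar markers were at 0, and the part of these lists in the results below was not tested. The levels below are those of cells with little beta cell transcript in either group. CPM is the read count scaled to the size of the library. In RNA from a whole culture, fewer cells of a type and less RNA per cell cannot be told apart.

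The nuclear pore is a ring-shaped channel built of many copies of each nucleoporin. An outer ring and an inner ring form its scaffold, membrane nucleoporins anchor it in the nuclear envelope, and nucleoporins rich in phenylalanine-glycine repeats fill the channel, the cytoplasmic filaments and the nuclear basket. Importins bind nuclear localization signals in the cytoplasm and release their cargo when they meet RanGTP in the nucleus, while exportins bind their cargo together with RanGTP and release it in the cytoplasm. In the classical import route an importin alpha reads the signal on the cargo and importin beta carries the pair through the pore.

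In the main fit, the members that passed the test were 5 carriers of 19 tested, and no nucleoporin row passed. With the replicate number added to the model as a block, Nup205 and Nup133 passed too. That fit called 27.1% of all genes. Of the 40 members with enough counts to be tested, 4 were higher with TLX (Xpo1, Kpna2, Kpnb1 and Xpo6) and 1 was lower (Xpot), at an adjusted p under 0.05 in edgeR's quasi-likelihood test over 11024 genes. These 5 are 12.5% of the tested members, against 16.8% of all genes tested, so the members as a list were not called more often than other genes. In each direction, 10% of members were higher and 2.5% lower, against 7.79% and 9.04% of all genes. Of 21 tested nucleoporin rows 0 were called by edgeR, 0 by DESeq2, which gave no adjusted p for Nup210l, and 0 by limma-voom, with 3 at an unadjusted p under 0.05 in edgeR, 1 in DESeq2 and 3 in limma-voom. Whether carriers were called more often than nucleoporins was not tested. Counts called by role, given below, also stand beside the shares of all genes called. These were 16.8% in edgeR, 16.6% in limma-voom and, among genes given an adjusted p, 8.25% in DESeq2. An unadjusted p under 0.05 in edgeR was found for 3321 of the 11024 genes. That count stands beside the unadjusted edgeR counts above and below. The median log2 fold change was 0.04 over the tested members and 0.00057 over all genes. Leaving out 1 library moved the member median to 0.11 (without control replicate 2), 0.095 (without TLX replicate 1), 0.0092 (without TLX replicate 2) and -0.0093 (without control replicate 1). The median size without regard to sign was 0.13 for members and 0.16 for all genes. The 2 groups did not overlap in 25 members (62.5%), with both TLX libraries above in 16 and below in 9, against 57.1% of all genes, 28.5% above and 28.6% below.

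**Figure D1:**
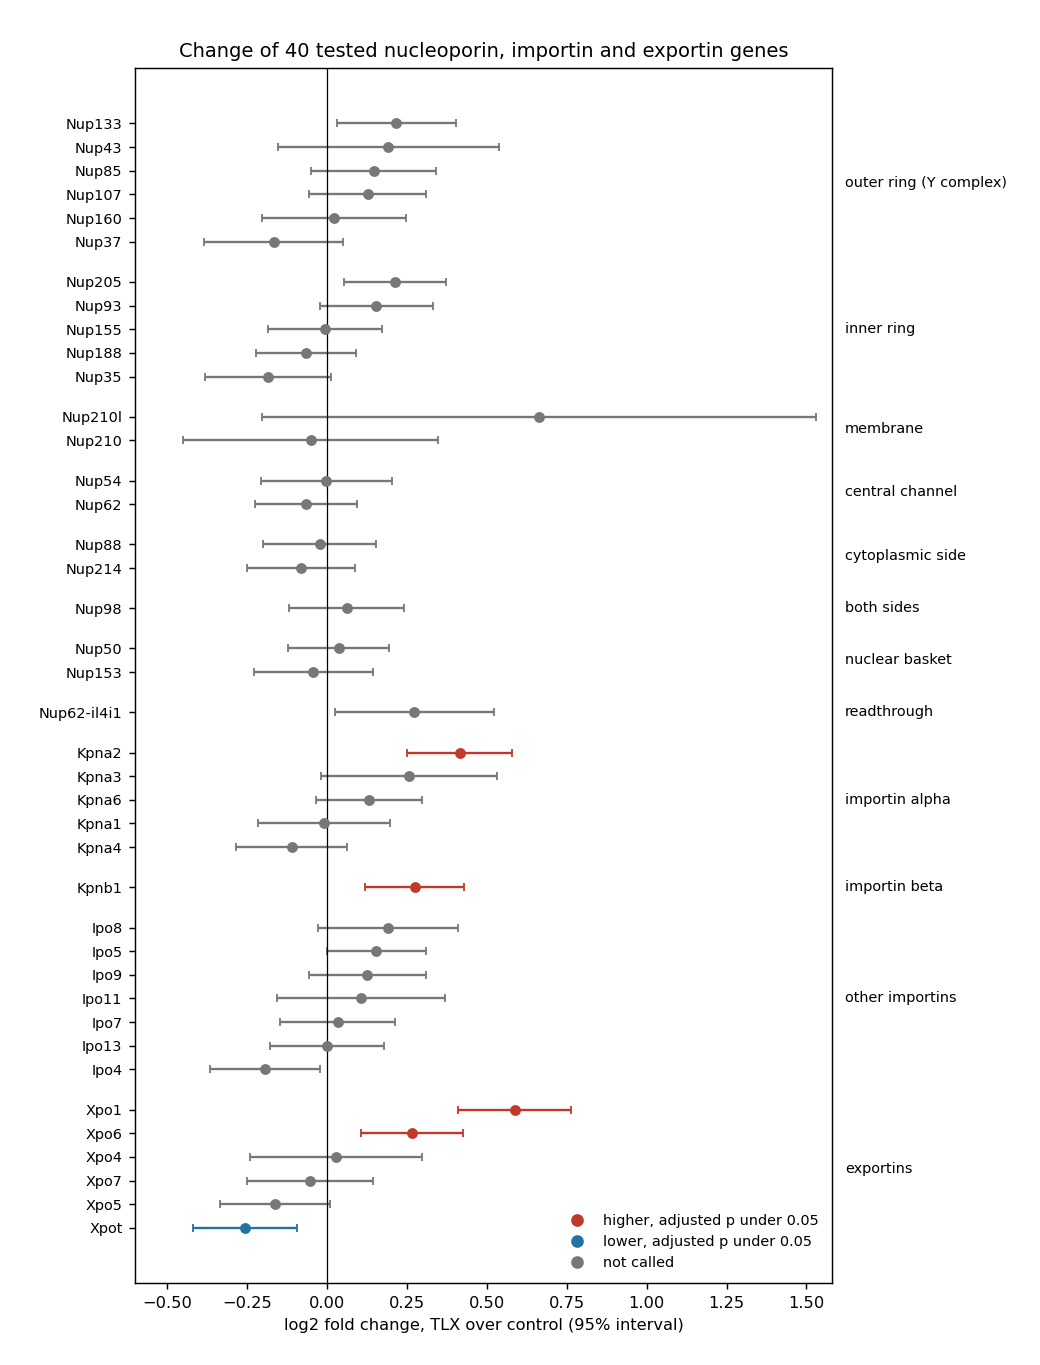
Log2 fold change of TLX over control for the 40 tested members, grouped by role, with points for the estimate, bars for the 95% interval and colour for the call. Xpo1 at 0.59 and Kpna2 at 0.42 lie farthest to the right of the called members, the wide interval of Nup210l at 0.66 crosses 0, Xpot at -0.26 is the only one called lower, and no nucleoporin is coloured.

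The promoters of the 5 called genes are shown first, since they are the members whose transcripts passed the test. Each is the RefSeq window of 250 bases before to 50 bases after the annotated start, in the build GRCm38.p6, which is not the mm9 build named for the count table. Capitals mark matches on either strand to 6 motifs: AAGTCA, the core of the site bound by TLX; TTTGAA, the cell cycle homology region of mitotic genes; CCAAT, bound by NF-Y; GGCGGGAA, an E2F site; CACGTG, the E-box of Myc and its relatives; and TGATGNAA, the element of amino acid starvation genes. No match overlaps another in these 5 windows.
Xpo1 (GRCm38.p6, chr11:23255791-23256090, plus strand): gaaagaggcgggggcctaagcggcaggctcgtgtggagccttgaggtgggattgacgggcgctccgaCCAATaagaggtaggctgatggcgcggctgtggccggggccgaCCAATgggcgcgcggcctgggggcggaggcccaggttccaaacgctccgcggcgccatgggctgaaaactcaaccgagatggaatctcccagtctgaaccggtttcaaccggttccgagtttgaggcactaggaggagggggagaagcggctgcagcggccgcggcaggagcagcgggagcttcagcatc
Kpna2 (GRCm38.p6, chr11:106999476-106999775, minus strand): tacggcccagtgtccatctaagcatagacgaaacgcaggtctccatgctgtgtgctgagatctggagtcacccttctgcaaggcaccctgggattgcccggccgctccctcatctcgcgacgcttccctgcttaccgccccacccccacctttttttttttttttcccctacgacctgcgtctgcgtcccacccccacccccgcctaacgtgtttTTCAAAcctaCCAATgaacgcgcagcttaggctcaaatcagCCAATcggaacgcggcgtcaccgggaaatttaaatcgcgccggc
Kpnb1 (GRCm38.p6, chr11:97187843-97188142, minus strand): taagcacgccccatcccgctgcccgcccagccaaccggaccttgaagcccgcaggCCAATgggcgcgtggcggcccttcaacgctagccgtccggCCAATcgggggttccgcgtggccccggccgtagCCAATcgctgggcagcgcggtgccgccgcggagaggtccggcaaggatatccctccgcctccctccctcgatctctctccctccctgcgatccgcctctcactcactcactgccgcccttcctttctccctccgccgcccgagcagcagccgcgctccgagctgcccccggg
Xpo6 (GRCm38.p6, chr7:126200452-126200751, minus strand): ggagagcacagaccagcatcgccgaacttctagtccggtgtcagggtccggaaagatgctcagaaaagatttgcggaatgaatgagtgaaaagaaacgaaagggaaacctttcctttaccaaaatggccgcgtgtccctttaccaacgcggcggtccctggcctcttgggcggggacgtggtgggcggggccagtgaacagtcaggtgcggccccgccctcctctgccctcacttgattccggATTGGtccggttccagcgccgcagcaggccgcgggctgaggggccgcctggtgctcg
Xpot (GRCm38.p6, chr10:121626283-121626582, minus strand): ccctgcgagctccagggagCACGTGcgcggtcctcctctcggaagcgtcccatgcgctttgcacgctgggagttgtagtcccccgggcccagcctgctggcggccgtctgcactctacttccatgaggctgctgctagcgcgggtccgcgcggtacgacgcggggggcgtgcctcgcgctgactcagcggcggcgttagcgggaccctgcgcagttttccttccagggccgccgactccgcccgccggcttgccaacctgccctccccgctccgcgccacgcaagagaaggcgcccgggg

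CCAAT or its reverse complement stood in 4 of these 5 windows. Xpo1 held 2 matches, beginning 183 and 140 bases before the start, Kpnb1 held 3, beginning 195, 155 and 122 bases before it, and Kpna2 held 2, beginning 25 bases before the start and at base 7 after it, with TTCAAA, the other strand of TTTGAA, beginning 35 bases before. Xpo6 held 1, at 7 bases before the start, and Xpot held the E-box alone, at 231 bases before it. CCAAT is common: it was in 37.4% of all 32851 windows, in 38.2% of the 10530 windows of tested genes and in 21 of the 37 windows (56.8%) of the 32 members with a window. The TLX core site was in none of the 5 windows shown, in 4 member windows (10.8%; Ipo11, Nup160 and Nup93), in 10.8% of windows of tested genes and in 15.1% of all windows. TTTGAA was in 18.9% of member windows, 11.7% of windows of tested genes and 17.9% of all windows. For the E-box these shares were 16.2%, 10.2% and 7.2%, and for the E2F site 5.4%, 4.1% and 2.2%. TGATGNAA was in 0 of 37 member windows, 2.2% of windows of tested genes and 4.0% of all windows. Windows of members held a median of 28 CpG dinucleotides, against 21 in windows of tested genes. A match is a run of letters and not a bound site.

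Exportins moved in both directions. Xpo1 encodes CRM1, the exportin of proteins with leucine-rich export signals and of several classes of RNA. It was at 110.4 and 117 CPM in TLX libraries and 71.3 and 79.7 CPM in control libraries. Both TLX libraries were above both controls, with means of 113.6 ± 4.4 CPM in TLX and 75.5 ± 5.9 CPM in control (SD, n = 2 each). The log2 fold change was 0.59 with an SE of 0.09 and a 95% interval of 0.41 to 0.76 (1.5-fold; adjusted p = 3.42e-05), the largest of any member called. It passed under all 13 alternatives run, with values from 0.51 to 0.67.

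Xpo6, the exportin of actin bound to profilin, was at 139 and 138 CPM in TLX and 114.6 and 115.5 CPM in control. The groups did not overlap, and its log2 fold change was 0.27 (SE 0.08, 95% interval 0.11 to 0.43; adjusted p = 0.0198). The call was lost in DESeq2 (adjusted p = 0.0811) and without TLX replicate 1 or 2 (0.216 and 0.182), while the value stayed between 0.25 and 0.27 over all alternatives. Xpot, the exportin of transfer RNAs, went the other way, with 195 and 203 CPM in TLX and 224 and 251 CPM in control. Both TLX libraries were below both controls, and the log2 fold change was -0.26 (SE 0.08, 95% interval -0.42 to -0.09; adjusted p = 0.0263). Its call was lost in DESeq2 (0.0795), without TLX replicate 1 or 2 (0.301 and 0.154) and without control replicate 2 (0.119), where the value was -0.17, against -0.26 with all libraries.

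The other 3 exportins did not pass. Xpo5, which exports precursors of microRNAs, was at 88.5 and 93.4 CPM in TLX and 97.7 and 105.6 CPM in control, with no overlap, a log2 fold change of -0.16 and an adjusted p of 0.191. Xpo4, a carrier of the translation factor eIF5A, was at 18.3 and 20.3 CPM in TLX and 17.4 and 20.2 CPM in control. Xpo7, an exportin of broad specificity, was at 63.6 and 74.7 CPM in TLX and 67.0 and 76.1 CPM in control. The groups of both overlapped, and their 95% intervals were -0.24 to 0.30 for Xpo4 and -0.25 to 0.14 for Xpo7.

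**Figure D2:**
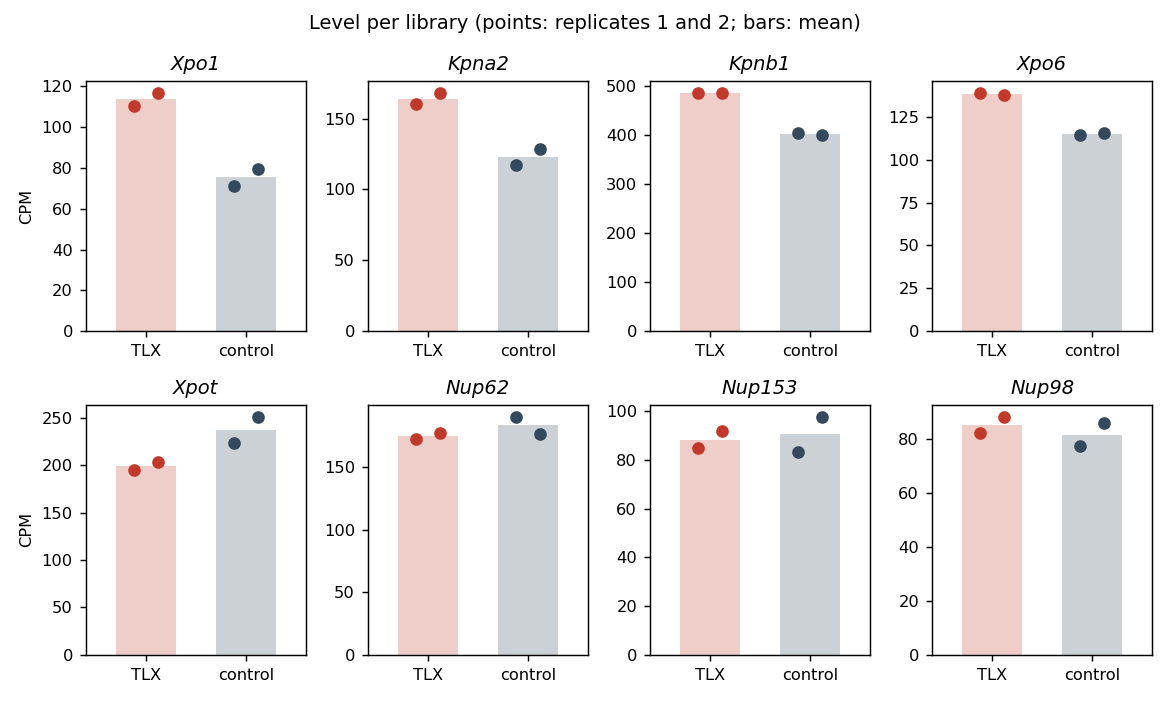
CPM in each library for the 5 called members and for Nup62, Nup153 and Nup98, with TLX to the left of control, points for replicates 1 and 2 and bars for their mean. Points of the called genes do not overlap between groups (Kpnb1 at 485 and 486 CPM in TLX and 404 and 399 CPM in control), while those of the 3 nucleoporins do.

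Of the importin alpha genes 1 of 5 tested was called (20%), beside 16.8% of all genes tested. Kpna2, an adaptor that binds classical nuclear localization signals and is abundant in proliferating cells, was at 160.1 and 168 CPM in TLX and 117 and 128 CPM in control. The groups were well apart, with means of 164 ± 6 CPM in TLX and 123 ± 8 CPM in control (SD, n = 2 each). Its log2 fold change was 0.42 (SE 0.08, 95% interval 0.25 to 0.58; 1.33-fold; adjusted p = 0.000693), and it passed under all 13 alternatives, with values from 0.35 to 0.48.

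The paralogs of Kpna2, which serve the same route with partly different cargo, did not pass. Kpna4 was at 98.4 and 99.2 CPM in TLX and 100.4 and 112.7 CPM in control, with a log2 fold change of -0.11 and a 95% interval of -0.28 to 0.06. Kpna6 was at 118 and 116 CPM in TLX and 104 and 110.2 CPM in control, with a log2 fold change of 0.13 and an interval of -0.03 to 0.30. The interval of Kpna2 overlaps those of Kpna6 and Kpna3 (-0.02 to 0.53). It does not overlap those of Kpna4 and Kpna1 (-0.21 to 0.20). The differences between the paralogs were not tested. Kpna1 was at 36.4 and 41.4 CPM in TLX and 39.2 and 39.0 CPM in control, with overlap. Kpna3 was at 26.7 and 31.0 CPM in TLX and 20.1 and 27.7 CPM in control, and the wide spread of its controls went with a log2 fold change of 0.26 that did not pass (adjusted p = 0.199). Without control replicate 2 it passed, at 0.52 (adjusted p = 0.00328), and without control replicate 1 it was at 0.055 (adjusted p = 0.82). Kpna7, an importin alpha of oocytes and early embryos, had 1 count in TLX replicate 2 and 0 in the other libraries.

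Kpnb1 encodes importin beta, the carrier that takes importin alpha and its cargo through the pore, and had the highest level per library of all members. It was at 485 and 486 CPM in TLX and 404 and 399 CPM in control. The libraries of each group were almost equal, with means of 485.4 ± 0.3 CPM in TLX and 401 ± 3 CPM in control (SD, n = 2 each), and the groups were apart. Its log2 fold change was 0.27 (SE 0.07, 95% interval 0.12 to 0.43; 1.21-fold; adjusted p = 0.0133). Without TLX replicate 1 or 2, which leaves a single TLX library, the value was 0.27 in both cases and the call was lost (adjusted p of 0.165 and 0.171). An antisense gene, Gm11583, overlaps exons of Kpnb1 in GENCODE, and since the use of strand in counting is not given in the sources used here, reads of the pair cannot be told apart. Exons of Nup88, Nup133, Nup188, Nup214, Nup35, Xpo4, Xpo7, Ipo4, Ipo8, Ipo11 and Kpna7 also overlap those of another gene on one or both strands, so the division of their reads is uncertain too.

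Of the 7 other importins 0 were called by edgeR, DESeq2 or limma-voom, with 1 at an unadjusted p under 0.05 in edgeR, 0 in DESeq2 and 2 in limma-voom. Ipo5, a carrier of ribosomal proteins and histones, was the most abundant, at 307 and 316 CPM in TLX and 274 and 286 CPM in control. Its groups did not overlap, and its log2 fold change was 0.15 with a 95% interval that touches 0 (-0.0014 to 0.31, adjusted p = 0.171). Among the alternatives it passed only in edgeR with the replicate number as a block (adjusted p = 0.0374). Ipo4, which imports histones and ribosomal proteins, had the lowest value, at 91.4 and 86.8 CPM in TLX and 105.9 and 98.3 CPM in control (log2 fold change -0.19, adjusted p = 0.115). It passed without control replicate 2, at -0.25 (adjusted p = 0.0344), and lay between -0.14 and -0.23 with each other library left out. The remaining 5 had log2 fold changes from 0.000072 for Ipo13, which carries cargo both ways, to 0.19 for Ipo8, a carrier of Argonaute proteins. Ipo7, Ipo11 and Ipo13 overlapped between groups, while Ipo8 (34.8 and 37.3 CPM in TLX, 29.5 and 33.5 CPM in control) and Ipo9 (77.9 and 89.3 CPM in TLX, 75.2 and 77.7 CPM in control) did not.

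To set the members of a carrier family side by side, levels were divided by the deposited feature length, as CPM per kb. Kpna2 made up 55.6% and 56.0% of the summed importin alpha level in TLX libraries and 49.1% and 48.9% in control libraries. The share of Kpna4 was 18.7% and 18.1% in TLX and 23.0% and 23.5% in control. Among exportins, Xpo1 made up 18.1% and 18.4% in TLX and 12.3% and 12.6% in control, and Xpot 27.4% and 27.5% in TLX and 33.1% and 34.2% in control. The ratio of Xpo1 to Xpot, in CPM, was 0.567 and 0.574 in TLX and 0.318 and 0.317 in control. Libraries of a group lay close together in each of these values and the groups were apart. These genes were picked with their calls in the same libraries known, so the separation adds no support to the calls. Kpna4 was not called, and its share also falls as the Kpna2 level in the sum rises. With 2 libraries against 2, a two-sided exact permutation test cannot go below p = 0.333, so these shares are descriptions.

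**Figure D3:**
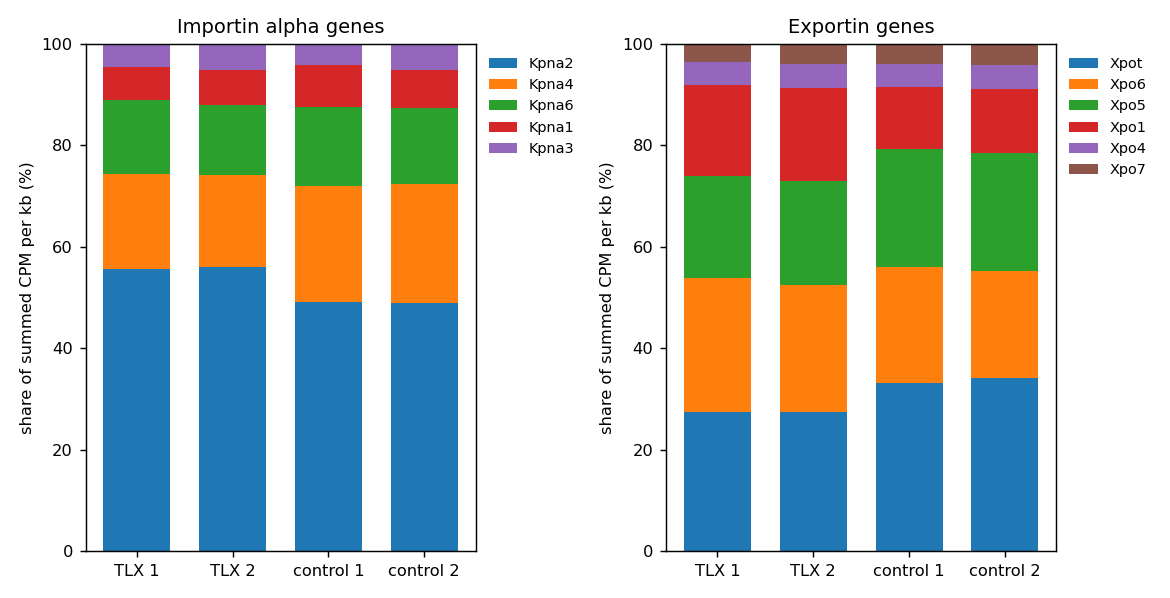
Share of each gene in the summed CPM per kb of the importin alpha genes (left) and the exportin genes (right), per library, with the TLX libraries to the left of the control libraries; Kpna7 is not drawn. The Kpna2 band is 55.6% and 56.0% high in TLX and 49.1% and 48.9% in control, and the Xpo1 band is 18.1% and 18.4% high in TLX and 12.3% and 12.6% in control.

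The scaffold of the pore held both signs. The outer ring, or Y complex, had 6 tested members, with log2 fold changes from -0.17 for Nup37 to 0.22 for Nup133 and 0 called by edgeR, DESeq2 or limma-voom (1 at an unadjusted p under 0.05 in edgeR, 0 in DESeq2, 1 in limma-voom). Nup133, a scaffold subunit of the complex, was at 54.8 and 55.5 CPM in TLX and 47.6 and 47.3 CPM in control. Its groups did not overlap (95% interval 0.03 to 0.40, edgeR adjusted p = 0.102). Among the alternatives it passed only in edgeR with the replicate number as a block (adjusted p = 0.036). Nup85, the most abundant of the 6 per length in the mean over all libraries, though below Nup37 in control, was at 48.8 and 54.8 CPM in TLX and 48.3 and 45.3 CPM in control, also without overlap, and with an adjusted p of 0.319. Nup37, a peripheral subunit, was lower in both TLX libraries, at 28.3 and 29.0 CPM in TLX and 32.6 and 31.8 CPM in control, and did not pass (adjusted p = 0.306). Nup107 was above its controls in both TLX libraries, while Nup160 and Nup43 overlapped.

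Of the 5 inner ring genes 0 were called by edgeR, DESeq2 or limma-voom, with 1 at an unadjusted p under 0.05 in each tool. Nup205, a large scaffold subunit, came closest of all nucleoporins, at 157 and 164 CPM in TLX and 135 and 142 CPM in control. Its groups did not overlap, and the log2 fold change was 0.21 (SE 0.08, 95% interval 0.05 to 0.37; adjusted p = 0.0628). Nup205 passed in edgeR with the replicate number as a block (adjusted p = 0.00494). Without control replicate 2 its log2 fold change was 0.25. Nup188, which takes the same place as Nup205 in other inner ring assemblies and is the most abundant of the ring per length, lay on the other side, at 149.8 and 151 CPM in TLX and 158 and 156 CPM in control (log2 fold change -0.06, adjusted p = 0.619). Its 95% interval, -0.22 to 0.09, and that of Nup205 overlap, and their difference was not tested. Nup93, which links the ring's subunits, had 0.15, Nup155 -0.0072 and Nup35, also called Nup53, -0.19, at 46.7 and 41.1 CPM in TLX and 50.7 and 49.4 CPM in control.

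Genes of the channel, filaments and basket had small differences, with log2 fold changes from -0.08 to 0.06. Nup62, the central channel protein, had the highest level per length in the mean over all libraries, and was at 73.5 CPM per kb in TLX and 76.9 CPM per kb in control. Its libraries were at 173 and 178 CPM in TLX and 190.5 and 176 CPM in control, which overlap (log2 fold change -0.07, 95% interval -0.22 to 0.09). Nup54, its partner, was at 37.2 and 37.7 CPM in TLX and 36.2 and 38.8 CPM in control. The readthrough row Nup62-il4i1 and the genes Il4i1 and Atf5 share exon positions with Nup62, so how its reads were divided is uncertain; the readthrough row had 23.1 and 26.0 CPM in TLX and 19.8 and 20.7 CPM in control (adjusted p = 0.126). Nup62cl had 0 counts in every library, which allows up to 0.347 and 0.379 CPM in TLX and 0.359 and 0.302 CPM in control (3 counts, counting error only).

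On the cytoplasmic face, Nup88 was at 63.5 and 63.8 CPM in TLX and 64.0 and 65.4 CPM in control, and Nup214, which binds Xpo1, at 91.6 and 94.6 CPM in TLX and 95.6 and 101.3 CPM in control. Both lay just below their controls without overlap, with log2 fold changes of -0.02 and -0.08 that did not pass. Nup98, a mobile nucleoporin on both faces, was at 82.3 and 88.3 CPM in TLX and 77.4 and 85.8 CPM in control. In the basket, Nup153 was at 84.7 and 91.6 CPM in TLX and 83.4 and 97.7 CPM in control, and Nup50, a cofactor of importin alpha, at 147 and 145 CPM in TLX and 142 and 143 CPM in control. Only Nup50 of these 3 did not overlap, with a log2 fold change of 0.04. The membrane nucleoporin Nup210 was low, with 55 and 56 counts in TLX and 54 and 73 in control, and its paralog Nup210l had 14 and 12 counts in TLX and 7 and 11 in control. The log2 fold change of Nup210l, 0.66, is the highest of any member, yet its 95% interval runs from -0.20 to 1.53.

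The intervals set what could have been seen. For the 18 nucleoporins that average at least 10 CPM, the readthrough row left out, every 95% interval of the log2 fold change lay between -0.39 (Nup37) and 0.54 (Nup43), inside a 1.5-fold change in either direction, which is 0.585 on this scale. Of all 40 tested members 38 had intervals inside that range. The exceptions were Xpo1 and Nup210l. The summed level of the nucleoporins was 1423 and 1453 CPM in TLX libraries and 1393 and 1436 CPM in control libraries, which overlap. Importins summed to 1619 and 1672 CPM in TLX and 1453 and 1505 CPM in control, with no overlap. Without Kpna2 and Kpnb1 the importin sums were 974 and 1019 CPM in TLX and 932 and 977 CPM in control. These overlap, with the TLX mean still higher. Both genes were called higher in these same libraries, so leaving them out narrows the difference by construction. The overlap therefore does not show that the other importins were unchanged. Exportins summed to 614 and 646 CPM in TLX and 592 and 648 CPM in control. Without Xpo1 and Xpo6, the exportins called higher, the sums of both TLX libraries lay below those of both controls. That choice also followed the calls, so it is a description only.

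**Figure D4:**
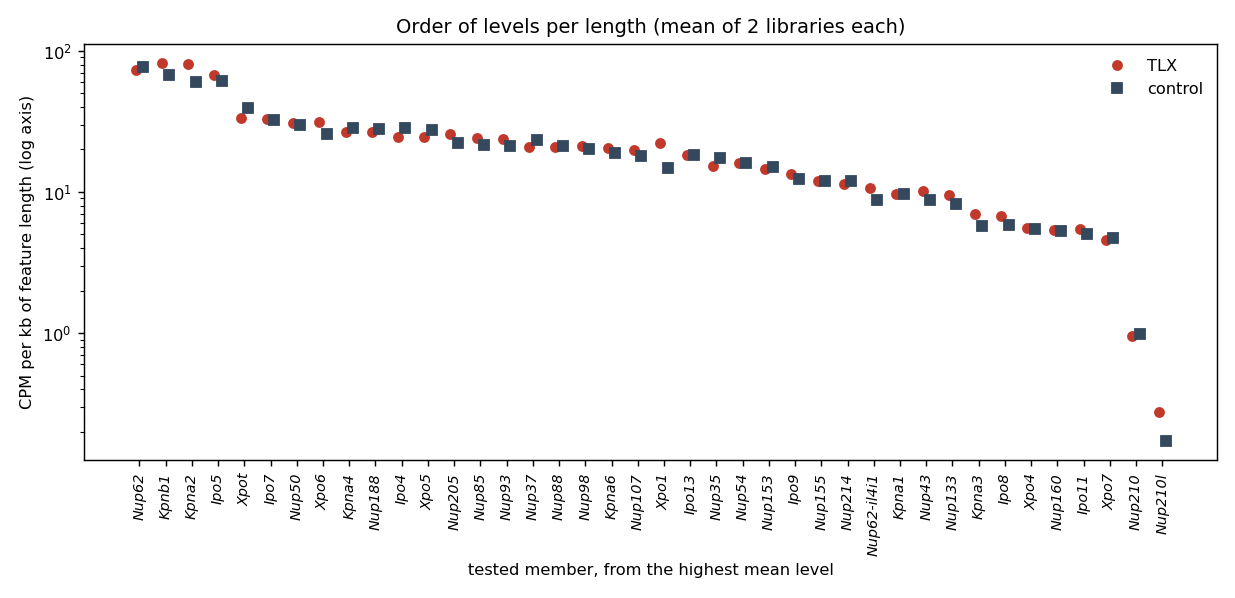
Level per length of the 40 tested members, in CPM per kb on a log axis, ordered by the mean over all libraries, with circles for the TLX mean and squares for the control mean. Nup62, Kpnb1, Kpna2 and Ipo5 lead the order at 64.4 to 75.2 CPM per kb, and Nup210 and Nup210l are last, at 0.968 and 0.224 CPM per kb.

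The order of levels per length was led by Nup62, Kpnb1, Kpna2 and Ipo5, with means over all libraries of 75.2, 75.0, 70.4 and 64.4 CPM per kb. In TLX the means of Kpnb1 and Kpna2 were 82.1 and 80.5 CPM per kb, above Nup62 at 73.5. In control Nup62 came first at 76.9, before Kpnb1 at 67.9, Ipo5 at 61.0 and Kpna2 at 60.3. Xpo1 stood at 22.1 CPM per kb in TLX and 14.7 CPM per kb in control, below Xpot (33.2 in TLX and 39.7 in control) and Xpo6 (31.1 in TLX and 25.8 in control) in both groups. The low place of Xpo7, at 4.57 CPM per kb in TLX and 4.73 in control, depends on its deposited length of 15118 bases, the longest of any member.

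Transport genes that the name pattern does not match were mostly not called either. Of 44 tested genes of the pore, the Ran cycle, other carriers and mRNA export, 2 were higher and 0 were lower in edgeR, or 4.55%, beside the 16.8% of all genes. DESeq2 and limma-voom also called 2 higher and 0 lower, beside 8.25% and 16.6% of all genes given an adjusted p by each tool. Lower genes with an unadjusted p under 0.05 numbered 4 in edgeR, 0 in DESeq2 and 4 in limma-voom. Over all 11024 genes edgeR gave 1686 such lower genes. Rangap1, which makes Ran hydrolyse GTP on the cytoplasmic side, was at 268 and 261 CPM in TLX and 232 and 206 CPM in control (log2 fold change 0.27, adjusted p = 0.0185). Alyref, an adaptor of mRNA export, was at 169 and 149.5 CPM in TLX and 137 and 109.97 CPM in control (0.37, adjusted p = 0.00777). Neither overlapped between groups, but Rangap1 lost its call without TLX replicate 1 or 2 or control replicate 2 (0.225, 0.131 and 0.0899), and Alyref without TLX replicate 1 or control replicate 2 (0.168 and 0.0509). The value of Alyref without control replicate 2 was 0.22.

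Ran, the GTPase that gives transport its direction, was at 920.0 and 885 CPM in TLX and 838 and 783 CPM in control, with a log2 fold change of 0.16 that did not pass (adjusted p = 0.198). Cse1l, the exportin that returns importin alpha to the cytoplasm, had 0.23 (adjusted p = 0.121), with 52.4 and 54.3 CPM in TLX and 41.3 and 49.4 CPM in control. Both lay above their controls in each TLX library. Without control replicate 2 Cse1l passed, at 0.37 (adjusted p = 0.00804), and without control replicate 1 it was at 0.11 (adjusted p = 0.532). Ranbp2, the large nucleoporin of the cytoplasmic filaments, and Tpr, the main strand of the basket, had 0.09 and 0.06, and their groups overlapped.

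**Figure D5:**
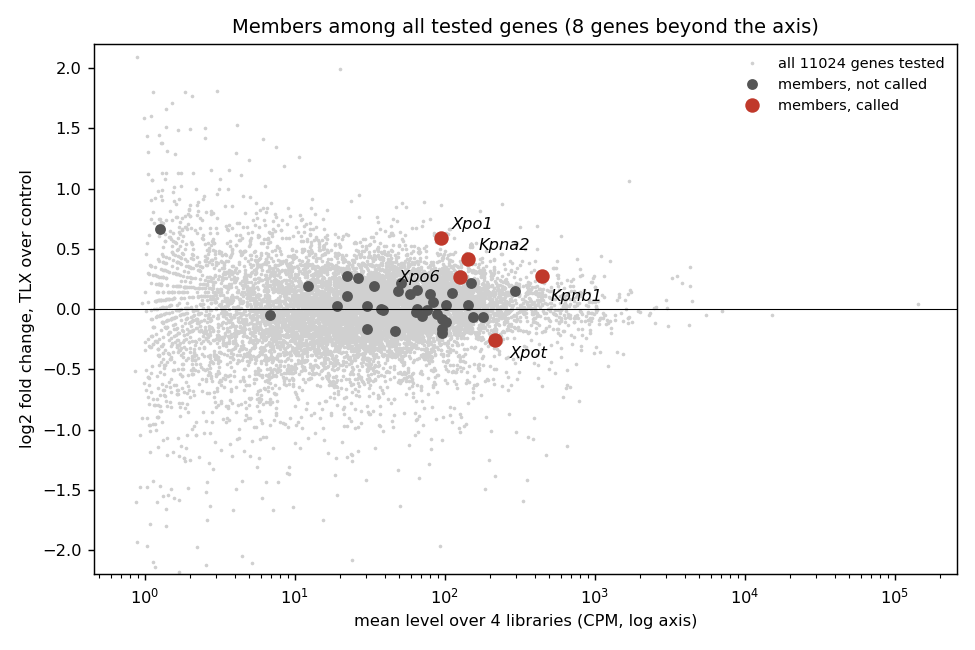
Log2 fold change of TLX over control against the mean level over the 4 libraries (CPM, log axis) for all 11024 genes tested, with members in dark grey and called members in red. The members lie within the cloud of all genes, mostly between -0.26 and 0.42, with Xpo1 at 0.59 and the barely counted Nup210l at 0.66; 8 genes lie beyond the axis.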

How the data were processed

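Per the labels' protocols, total RNA of stable TLX overexpressing and control MIN6 cells was extracted with Trizol and made into Illumina libraries. The submitters' processing notes name TopHat2 2.0.13 and mm9. No counting program, annotation or strand setting is given in the sources used here. Raw read counts per feature, not normalized, were deposited by the authors, with a feature length in another column. Rows of cDNA clones (33353 of 56826; 23.3% to 25.1% of all counts) entered neither library sizes nor tests.

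Genes passing filterByExpr at a minimum count of 10 were normalized with TMM factors and fitted in edgeR 4.0.16 (R 4.3.3; quasi-likelihood F-test, TLX over control, 2 residual degrees of freedom), with Benjamini-Hochberg adjustment over 11024 genes at 0.05. The SE is the absolute log2 fold change divided by the square root of F. The 95% intervals use the test's total degrees of freedom. These exceed 2 because the spread of each gene is drawn towards that of all genes. The test was checked on simulated counts. Median chi-square values per gene were 0.923 for the TLX pair and 1.13 for the control pair, above the 0.455 from sampling alone. They were scaled to raw totals, which include Rn45s. Its share of gene row counts was 12.2% and 16.7% in TLX and 14.2% and 14.3% in control. The values therefore hold differences of scaling between libraries as well as the spread of single genes. Alternatives included DESeq2 1.42.0, limma-voom 3.58.1 and leaving out each library. Members and lists were chosen with earlier results of these data known. Named genes are those called, the most abundant per length of each role and textbook carriers and nucleoporins; members named beyond these were chosen after their values were seen. All 42 rows matched RefSeq symbols or synonyms.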

Additional observations from a re-analysis of the deposited data

How the results depend on the processing

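Xpo1 and Kpna2 kept direction and call under all 13 alternatives. With the replicate number as a block, 8 members were higher and 2 lower, and 7 other transport genes were higher and 3 lower. The share of all genes called was then 27.1%. The members added by the block were Ipo5, Kpna3, Nup133 and Nup205, higher, and Ipo4, lower. The other transport genes added were Ahctf1, Cse1l, Ran, Ranbp1 and Tnpo3, higher, and Aaas, Rae1 and Rcc1, lower. Each replicate number is borne by a TLX and a control library, and no label ties the numbers to a batch. The replicate differences of both groups correlated at r = 0.21 over 9465 genes. Whether libraries of the same number were paired cannot be told from the labels and was not tested. DESeq2 called 0 members lower, with Xpot at an adjusted p of 0.0795. A filter of 10 CPM on average gave 2 other transport genes that were lower, Rae1 and Rcc1, against 0. Leaving out 1 library at a time gave 2 to 6 members higher, 0 to 1 lower, 1 to 4 other transport genes higher and 0 to 2 lower. Leaving out any library leaves 1 residual degree of freedom and a lone library in 1 group, which is assumed to vary like the other group. The share of all genes called also moved, down without a TLX library and up without a control library. Counts of calls with and without a library are therefore not alike.

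Signs turned for 15 genes, none of them called, with log2 fold changes up to 0.19 (Nup43) with all libraries. On leaving out single libraries the log2 fold change ran from -0.011 to 0.14 for Nup98, -0.051 to 0.050 for Nup54, -0.074 to 0.15 for Xpo4, -0.17 to 0.059 for Xpo7, -0.10 to 0.082 for Kpna1, -0.076 to 0.066 for Nup155, -0.14 to 0.049 for Nup210, -0.15 to 0.078 for Nup153, -0.079 to 0.14 for Ipo7, -0.015 to 0.015 for Ipo13, -0.039 to 0.28 for Ipo11, -0.029 to 0.49 for Nup43, -0.065 to 0.12 for Nup160, -0.062 to 0.23 for Ranbp2 and -0.071 to 0.18 for Tpr. Ipo13 was at -0.0085 without normalization factors, -0.0044 without a filter, -0.012 with the 10 CPM filter, -0.0029 with all feature rows and -0.0042 without Rn45s and Lars2. Nup54 was at 6.16e-06 with the replicate block. The cause was not tested. No scaling moved the median of all genes by over 0.1. Depth limits the low members most: Nup210l, with 7 to 14 counts a library, could not be measured to within a 1.5-fold change.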

Other observations

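Of the 4 members called higher, 3 (Xpo1, Kpna2 and Kpnb1) lie on chromosome 11 of GRCm38, and Nup85 and Nup88, also tested there, were not called. Over the 904 tested genes of chromosome 11 the median log2 fold change was -0.0096, and 8.08% were higher and 9.18% lower, beside 7.79% and 9.04% of all genes tested. This was looked at after the values were seen.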
